A study of Rattus norvegicus with 17 samples.

Results

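The genes described here are the oxidative stress defence genes governed by NRF2: Nfe2l2, which encodes NRF2 itself, and Nqo1, Hmox1, Gclc, Gclm, Txnrd1, Srxn1, Gpx2, Prdx1 and Sod2. They were taken by name, with no threshold on a measured value. Srxn1 was not analysed here, so 9 of the 10 genes could be followed, out of 17251 genes in the expression table. All 9 passed the filter on low values, which required at least 1 TPM in at least 3 of the 17 rats and left 13105 genes. TPM is a transcript abundance scaled for gene length and library size, so that levels of different genes can be set side by side.

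RNA was sequenced from the meibomian gland (MG), the lipid-secreting gland of the eyelid, of female Sprague-Dawley rats aged 10 to 12 weeks. The 4 groups were control WT (wild-type, no UVB, 4 rats), control P1.hMR (no UVB, 5 rats), UVB WT (3 rats) and UVB P1.hMR (5 rats). UVB groups received 5 daily exposures of the eyelids. P1.hMR rats carry the human mineralocorticoid receptor (MR) gene NR3C2 under its own proximal P1 promoter, which is active in every MR-expressing tissue, so the transgene is not restricted to the MG. The design asks what UVB did to the gland in each genotype, and whether the transgene altered it. The upper eyelids of UVB rats were shaved first. The methods do not say that controls were shaved, so shaving and UVB cannot be told apart. The methods count eyes and the labels number rats in the UVB groups, and each library was taken as 1 rat.

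NRF2 is a transcription factor that is held in the cytoplasm by KEAP1 and degraded. Oxidants and electrophiles modify KEAP1, and NRF2 then accumulates, pairs with a small MAF protein in the nucleus and binds antioxidant response elements in its target genes. The targets make glutathione, reduce peroxides and quinones, and keep thioredoxin and NADPH in supply. NRF2 is controlled largely at the level of its protein, which these data did not measure. UVB is a known source of oxidants in skin. Sod2, the mitochondrial superoxide dismutase, is also a well-known target of NF-kB.

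The libraries matched their labels. NR3C2 was listed at 0 in all 7 WT rats, and in P1.hMR rats it averaged 8.16 ± 1.16 TPM (SD, n = 5) without UVB and 6.53 ± 1.46 (SD, n = 5) with UVB. Meibocyte genes were abundant in every group, with mean Scd, a fatty acid desaturase, of 25785 to 27692 TPM and mean Awat2, the wax ester synthase, of 7280 to 11610 TPM, as an MG label implies. Awat2 was itself called lower after UVB, from means of 11610 to 7380 TPM in WT and 10455 to 7280 TPM in P1.hMR animals, without overlap. Between 12372 and 12737 genes reached 1 TPM in a rat. Neutrophil markers were low. Elane, a granule protease, did not exceed 0.09 TPM in any rat and Mpo, myeloperoxidase, did not exceed 0.66 TPM, with group means of 0.0275 and 0.016 TPM in WT and P1.hMR controls and 0.217 and 0.314 TPM after UVB. Csf3r, the G-CSF receptor, was called higher after UVB in both genotypes. Its mean went from 0.12 to 1.12 TPM in WT and from 0.234 to 1.93 TPM in P1.hMR animals. Ncf1, the other neutrophil marker that passed the filter, was not called, with log2 differences of -0.07 in WT and -0.23 in P1.hMR animals. The summed level of 7 neutrophil markers ran from 3.17 to 6.87 TPM in control WT and 3.81 to 7.12 TPM in UVB WT rats. In P1.hMR rats it ran from 4.03 to 10.1 TPM without and 5.74 to 8.72 TPM with UVB, so the groups overlapped. Ncf1, with group means of 4.23 to 5.81 TPM, made up a large part of these sums, which follow it more than Csf3r or Mpo.

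The promoters of several of these genes hold the motif through which NRF2 acts. RefSeq promoters of build GRCr8, spanning 250 bases before to 50 bases after the start of transcription, were found for 8 of the 9 genes, Hmox1 being the exception. The core of the antioxidant response element, TGACNNNGC, searched on both strands, lay in 6 of those 8 genes (Nfe2l2, Gclm, Txnrd1, Gpx2, Prdx1 and Sod2) and in neither Nqo1 nor Gclc. It lay in 12.1% of all 33469 promoters and in 14.2% of the 13778 promoters of genes in the expression table. Such a match is a description of the letters and not of binding. An element lying further than 250 bases before the start would not have been found, for Nqo1 and Gclc as for the others. The 5 matches before the start of transcription are given because they include Gpx2, the gene that changed most after UVB. Each is written 5′ to 3′ on the strand of the gene, and the capitals mark the 9 bases that match the core when read on the opposite strand.
Gpx2: gtgggtacctggtttcGCTAAGTCAttct
Prdx1: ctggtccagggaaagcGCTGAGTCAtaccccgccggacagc
Txnrd1: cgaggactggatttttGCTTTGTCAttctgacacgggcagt
Sod2: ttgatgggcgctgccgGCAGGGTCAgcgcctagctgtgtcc
Gclm: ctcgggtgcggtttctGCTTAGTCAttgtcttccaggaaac

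The Gpx2 window lies at chr6:101230034-101230062, with the motif starting 13 bases before the start of transcription, on the minus strand. The Prdx1 window lies at chr5:135383755-135383795 on the plus strand, 135 bases before the start. In Prdx1 the letters also contain TGAGTCA, a match to the AP-1 motif TGANTCA, which overlaps the core and was found in 7.33% of all promoters. Prdx1 was the one gene of the 8 with an AP-1 match. The Txnrd1 window lies at chr7:22755958-22755998 on the minus strand, 78 bases before the start of 1 of its 2 RefSeq promoters. The Sod2 window lies at chr1:50050179-50050219 on the minus strand, 35 bases before the start, and the Gclm window at chr2:213031947-213031987 on the plus strand, 172 bases before it. The Nfe2l2 match, TGACGCCGC at chr3:81028953-81028961 on the minus strand, lies 38 bases after the start and reads on the strand of the gene.

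The 9 genes were well expressed. Prdx1, a peroxiredoxin that reduces hydrogen peroxide in the cytoplasm, averaged 1030 TPM over the 17 rats and ranked above 99.3% of genes in the table. Every other member lay far below it. Mean levels fell from 77.9 TPM for Gpx2 through Gclm at 70.3, Nfe2l2 at 70, Sod2 at 64.8, Hmox1 at 63, Gclc at 56.3 and Nqo1 at 56.2 to Txnrd1 at 39.1. The ranges over rats of neighbours in this order overlapped throughout, except between Prdx1 (lowest rat 871.36 TPM) and Gpx2 (highest rat 145.76 TPM).

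**Figure D1:**
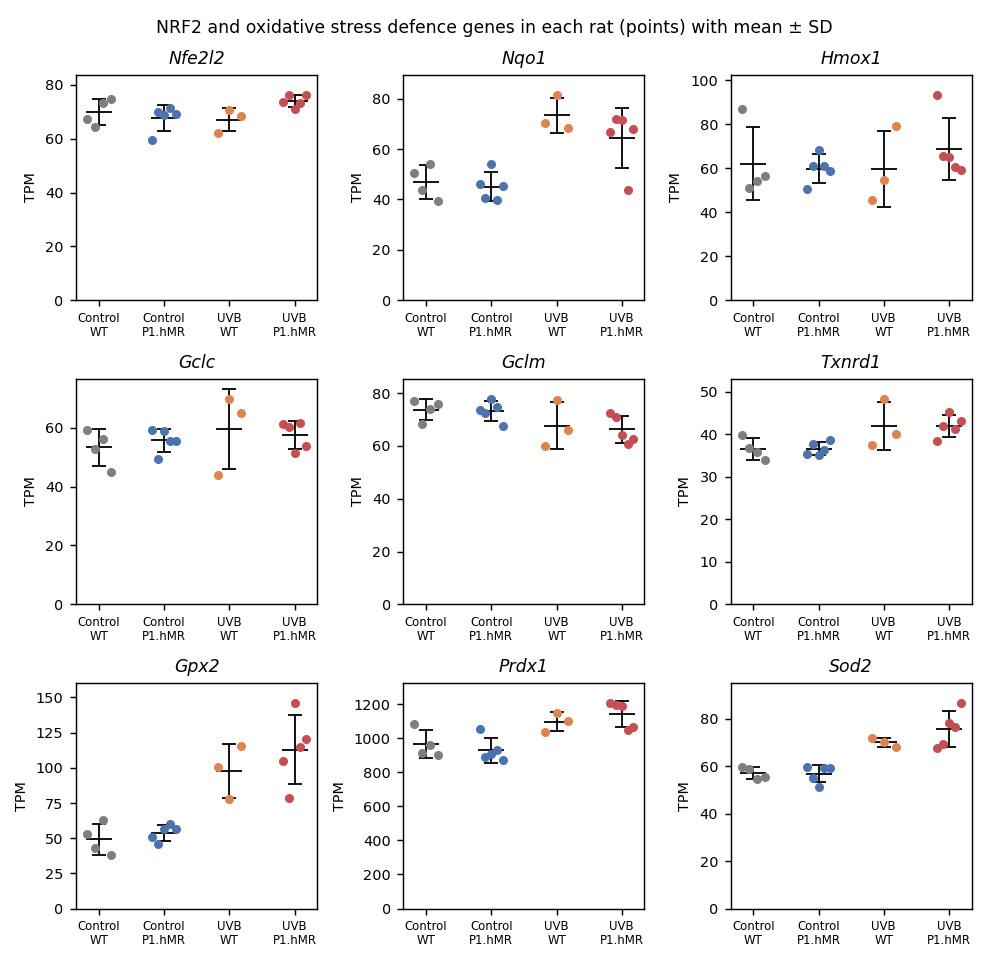
TPM of the 9 genes in each of the 17 rats, 1 panel per gene, with the 4 groups on the x axis and TPM from 0 on the y axis. Points are rats, and the bar and whiskers are the group mean ± SD. Gpx2 and Sod2 of all 8 UVB rats lie above those of all control rats of the same genotype, while Nqo1 of 1 UVB P1.hMR rat lies at 43.78 TPM among the controls.

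After UVB Gpx2 rose in both genotypes and Nqo1 in WT rats, while Nfe2l2 did not pass the test in either genotype. Gpx2, the epithelial glutathione peroxidase, changed most, by about a doubling in both genotypes, and Nqo1, the quinone reductase often used as a readout of NRF2, came next. A gene was called changed at a limma Benjamini-Hochberg adjusted p under 0.05 over all 13105 genes together with a log2 fold change of at least 0.5 in size. In WT rats 2 of the 9 genes were called, Gpx2 and Nqo1, both higher, where 7.91% of all genes were called. In P1.hMR rats 1 of the 9, Gpx2, was called, where 10.8% of all genes were. Averaged over the genotypes, Gpx2 and Nqo1 were called, where 9.48% of all genes were. The median log2 fold change of the 9 genes was 0.185 in WT and 0.19 in P1.hMR animals, beside 0.005 and -0.016 over all genes tested. Of 10 meibocyte and sebocyte markers, 3 were called higher and 1 lower in WT, and 2 higher and 2 lower in P1.hMR animals, and their summed level ran from 44161 to 53351 TPM in control WT, 41838 to 49526 TPM in UVB WT, 43409 to 49235 TPM in control P1.hMR and 40422 to 46826 TPM in UVB P1.hMR rats. Of 8 keratinocyte markers, 1 was called higher and 1 lower in each genotype. Their summed level ran from 11876 to 14309 TPM in control WT and 14003 to 17019 TPM in UVB WT rats. In P1.hMR rats it ran from 12186 to 13474 TPM without and 12543 to 17760 TPM with UVB. The part of either set of markers in the members' differences was not tested. In these bulk samples, more cells of a type and more RNA per cell cannot be told apart.

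Gpx2 stood at 53.01, 42.75, 62.64 and 38.37 TPM in WT controls and at 100.86, 77.55 and 115.73 TPM in the UVB WT rats. Every UVB rat was above every control. Non-overlap of this kind was seen for 3 of the 9 genes in WT (Gpx2, Nqo1 and Sod2, beside 26.6% of all genes) and for 2 in P1.hMR rats (Gpx2 and Sod2, beside 27.2%). In P1.hMR rats the controls held 50.54, 45.54, 56.35, 60.23 and 56.47 TPM, and UVB rats held 104.53, 78.87, 145.76, 115.1 and 120.42 TPM. Here too the groups did not overlap. Gpx2 rose by 0.99 on the log2(TPM + 1) scale in WT (SE 0.19, adjusted p = 0.00199 in limma) and by 1.03 in P1.hMR animals (SE 0.16, adjusted p = 9.8e-05 in limma), the latter a fold of 2.05. The exact permutation test gave p = 0.00794 in P1.hMR and p = 0.0571 in WT rats, in each case the smallest p the group sizes allow. Averaged over the genotypes, with UVB labels permuted within each, the exact p was 0.000227, again the smallest possible.

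Nqo1 held 50.38, 43.69, 54.26 and 39.24 TPM in control WT rats and 70.45, 81.47 and 68.21 TPM in UVB WT rats, with no overlap. It rose by 0.64 (SE 0.15, limma adjusted p = 0.00786). In control P1.hMR rats it held 46.04, 40.56, 53.97, 39.66 and 45.38 TPM, and in UVB P1.hMR rats 66.72, 72.04, 71.62, 43.78 and 67.99 TPM. There, 4 UVB rats lay above every control and 1, at 43.78 TPM, lay among them. The log2 difference was 0.49 (SE 0.13, limma adjusted p = 0.00604, exact permutation p = 0.0317), just under the fold threshold, so that Nqo1 was not called in P1.hMR rats. Without that rat (UVB P1.hMR replicate 4) it was 0.62, and without control P1.hMR replicate 3 it was 0.56. Nqo1 was then called in both cases, which takes the count of called genes in P1.hMR rats from 1 to 2.

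Hair follicle keratins, 8 of the shaft and 2 of the inner root sheath (Krt71 and Krt72), moved after UVB in the opposite direction to Nqo1. All 10 had a negative log2 difference in both genotypes, and 6 were called lower in WT and 4 in P1.hMR animals after UVB, Krt71 and Krt72 among them in each. Over all genes 3.98% were called lower in WT and 5.71% in P1.hMR animals. Their summed level ran from 672 to 1021 TPM in control WT, 282 to 752 TPM in UVB WT, 546 to 1216 TPM in control P1.hMR and 407 to 623 TPM in UVB P1.hMR rats. With their mean as a covariate, the Nqo1 difference fell to 0.41 in WT (limma adjusted p = 0.201) and to 0.37 averaged over the genotypes (limma adjusted p = 0.059), and it was no longer called. In P1.hMR rats, where Nqo1 was not called before, it fell to 0.34 (limma adjusted p = 0.0875). Gpx2 stood at 1.17 in WT and 1.15 in P1.hMR animals in that fit and was still called in both. The covariate was itself lower after UVB, so this fit cannot separate hair follicles from UVB. The part of hair follicles in the Nqo1 difference was not tested.

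A further 3 enzymes passed the adjusted p, averaged over the genotypes, with higher values after UVB and less than the fold threshold. Sod2 held 59.89, 58.65, 54.42 and 55.35 TPM in control WT rats against 71.95, 70.24 and 68.07 TPM in UVB WT rats. In P1.hMR rats it held 59.56, 55.04, 51.18, 59.21 and 59.28 TPM without and 67.81, 69.25, 78.39, 76.35 and 86.48 TPM with UVB. The groups did not overlap in either genotype. The log2 difference was 0.29 in WT (SE 0.07, limma adjusted p = 0.0108) and 0.40 in P1.hMR animals (SE 0.06, limma adjusted p = 1.08e-04). These were small but even differences, and at an adjusted p under 0.05 with no fold threshold 21.5% of all genes passed in WT, 39.1% in P1.hMR rats and 47.2% for the average over the genotypes.

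Prdx1 held 1085.42, 916.25, 958.52 and 902.91 TPM in control WT rats and 1039.21, 1150.3 and 1099.33 TPM in UVB WT rats. The groups overlapped, through the first control. In P1.hMR rats it held 1053.43, 888.7, 906.17, 929.49 and 871.36 TPM without and 1204.58, 1197.25, 1191.93, 1049.49 and 1064.07 TPM with UVB, also overlapping through 1 control. The log2 difference averaged over the genotypes was 0.24 (SE 0.05, limma adjusted p = 0.001). It passed the adjusted p in P1.hMR rats (0.30, limma adjusted p = 0.00178) and did not in WT rats (0.18, limma adjusted p = 0.0993). Txnrd1, the cytosolic thioredoxin reductase, ranged from 33.86 to 39.91 TPM in control and 37.52 to 48.22 TPM in UVB WT rats, and from 35.04 to 38.65 TPM in control and 38.29 to 45.12 TPM in UVB P1.hMR rats. Its averaged log2 difference was 0.19 (SE 0.05, limma adjusted p = 0.0054). By genotype it passed the adjusted p in P1.hMR rats (0.19, limma adjusted p = 0.026) and did not in WT rats (0.19, limma adjusted p = 0.0925).

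**Figure D2:**
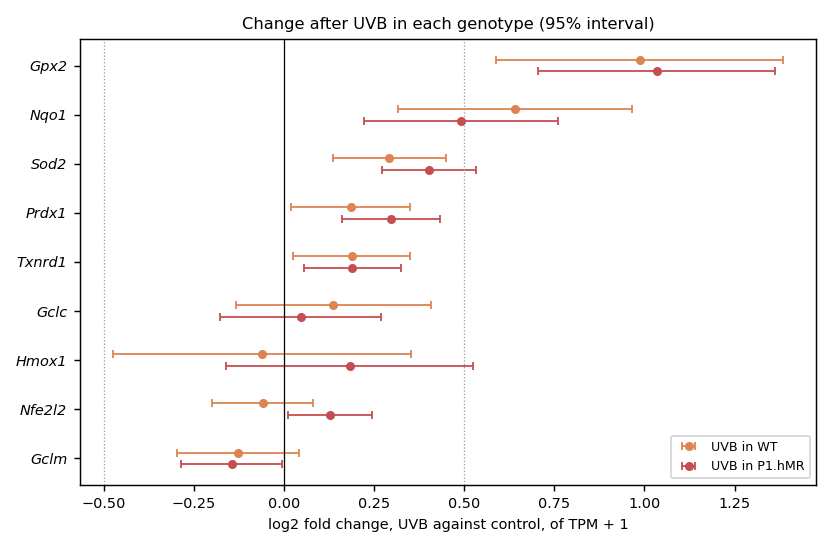
log2 fold change of TPM + 1 after UVB for the 9 genes, in WT and in P1.hMR animals, as points with 95% intervals from limma. Dotted lines mark the fold threshold of 0.5 in either direction, which Gpx2 passed in both genotypes and Nqo1 in WT, with 0.49 in P1.hMR rats.

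Gclc and Gclm were not called after UVB. They encode the catalytic and modifier subunits of glutamate-cysteine ligase, the rate-limiting enzyme of glutathione synthesis. Gclc held 59.25, 52.63, 56.23 and 44.92 TPM in control WT rats and 43.88, 69.62 and 65.02 TPM in UVB WT rats, which lay on both sides of the controls. Its log2 difference was 0.14 in WT (95% interval -0.13 to 0.41) and 0.05 in P1.hMR animals (95% interval -0.18 to 0.27), and neither passed. Without the UVB WT rat at 43.88 TPM (replicate 1) the WT value was 0.34 (limma adjusted p = 0.0316), still under the fold threshold, and without replicate 2 it was 0.01. Gclm held 73.7 ± 3.87 TPM (SD, n = 4) in control and 67.7 ± 8.91 (SD, n = 3) in UVB WT rats, and 73.2 ± 3.73 (SD, n = 5) in control and 66.2 ± 5.16 (SD, n = 5) in UVB P1.hMR rats. Its log2 difference was -0.13 in WT and -0.14 in P1.hMR animals, and -0.14 averaged over the genotypes (SE 0.05, limma adjusted p = 0.0403), the one negative value among the 9 genes that passed the adjusted p, and under the fold threshold.

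Hmox1, which encodes heme oxygenase 1, the inducible enzyme that breaks down heme, had 1 rat far above the others in each of 2 groups. It held 86.9, 50.91, 54.34 and 56.45 TPM in control WT rats and 45.49, 54.75 and 79.03 TPM in UVB WT rats. The ranges overlapped almost fully. In P1.hMR rats it held 50.43, 61.01, 68.44, 60.84 and 58.71 TPM without and 93.34, 65.42, 65.04, 60.65 and 59.19 TPM with UVB. The log2 difference was -0.06 in WT (95% interval -0.47 to 0.35) and 0.18 in P1.hMR animals (95% interval -0.16 to 0.52). Without the rat at 86.9 TPM the WT value was 0.11, and without the rat at 93.34 TPM the P1.hMR value was 0.07, with neither passing. These intervals do not reach a doubling in either direction.

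Macrophages are a known site of Hmox1 expression, and their markers moved in part. Of 12 macrophage markers, 6 were called higher after UVB in each genotype (Cd163, Cd14, Mrc1, C1qa, C1qb and C1qc), while Cd68, Csf1r, Adgre1, Lyz2, Itgam and Aif1 were not called. Over all genes 3.92% were called higher in WT and 5.05% in P1.hMR animals. The scavenger receptor Cd163, which takes up haemoglobin bound to haptoglobin, had a log2 difference of 2.55 in WT and 2.66 in P1.hMR animals. The summed level of the 12 genes ran from 193 to 526 TPM in control WT, 234 to 386 TPM in UVB WT, 195 to 459.6 TPM in control P1.hMR and 332 to 459 TPM in UVB P1.hMR rats, and so overlapped. Lyz2, which was not called, had the highest level of the 12 in every group, with means of 96.9 to 200.2 TPM. The sum therefore follows Lyz2 more than low markers such as Cd163, with means of 0.97 to 11.7 TPM. Within groups, the correlation of Hmox1 with the mean of the 12 markers was -0.16 over 17 rats, each value centred on its group.

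Nfe2l2 itself held 67.33, 64.31, 73.36 and 74.69 TPM in control WT rats and 62.24, 70.71 and 68.27 TPM in UVB WT rats. The UVB rats fell within or below the control range, and the log2 difference was -0.06 (95% interval -0.20 to 0.08). In P1.hMR rats it held 59.34, 70.07, 68.92, 71.54 and 69.24 TPM without and 73.7, 76.22, 71.12, 73.21 and 76.11 TPM with UVB. Of the 5 UVB rats, 4 were above every control, and the log2 difference was 0.13 (SE 0.05, limma adjusted p = 0.0759, exact permutation p = 0.0159). Without the control at 59.34 TPM it was 0.08.

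The wider pathway was followed in 69 further genes in 8 lists, of which 64 were in the table and passed the filter. After UVB, 10 of the 64 were called in WT rats (8 higher and 2 lower, beside 3.92% and 3.98% of all genes) and 10 in P1.hMR rats (7 higher and 3 lower, beside 5.05% and 5.71%). The median log2 fold change of the 64 genes was 0.064 in WT and 0.041 in P1.hMR animals. The 12 genes called in at least 1 genotype came from the glutathione, thioredoxin, superoxide and quinone or aldehyde lists.

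None of the 10 genes that regulate NRF2 was called in either genotype, beside 7.91% of all genes in WT and 10.8% in P1.hMR rats. This list holds Keap1, its partners in protein degradation, Sqstm1, Bach1, which competes for the same DNA element, Nfe2l1 and the small MAF proteins. Keap1 had a log2 difference of 0.03 in WT and -0.03 in P1.hMR animals. Maff had the one adjusted p under 0.05 in WT rats, at a log2 difference of -0.30 (limma adjusted p = 0.02), under the fold threshold. In P1.hMR rats Nfe2l1, a relative of NRF2, differed by -0.18. Cul3, the scaffold of the ligase that degrades NRF2, differed there by 0.12 and Rbx1, its RING subunit, by 0.13. Each had a limma adjusted p under 0.05 and lay far under the fold threshold. At that adjusted p alone, 21.5% of all genes passed in WT and 39.1% in P1.hMR rats.

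Glutathione supply moved at steps other than glutamate-cysteine ligase. Of the 8 genes in this list, 2 were called higher in WT and 3 in P1.hMR animals, beside 3.92% and 5.05% of all genes. Gss, glutathione synthetase, which performs the last step, rose from 16.2 ± 2.18 TPM (SD, n = 4) to 30.3 ± 1.47 (SD, n = 3) in WT and from 17.3 ± 2.72 (SD, n = 5) to 32.2 ± 4.93 (SD, n = 5) in P1.hMR rats, with limma adjusted p of 5.84e-04 and 3.31e-05. Every UVB rat was above every control rat of the table in Gss. Slc7a11, the cystine importer, was low, and rose from 1.89 ± 0.468 to 4.07 ± 1.64 TPM (SD, n = 4 and 3) in WT and from 2.04 ± 0.555 to 5.08 ± 0.911 TPM (SD, n = 5 and 5) in P1.hMR rats, by 0.77 and 1.00 on the log2(TPM + 1) scale. Ggt1, the surface enzyme that splits extracellular glutathione, was also low. It rose from 3.79 ± 1.69 to 7.29 ± 2.39 TPM (SD, n = 5 and 5) in P1.hMR rats (0.81, limma adjusted p = 0.0093). Those groups overlapped, through the control at 6.7 TPM. In WT rats its difference was 0.58 (limma adjusted p = 0.138).

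Among 13 glutathione peroxidases and transferases other than Gpx2, 3 were called higher in WT and 2 in P1.hMR animals, and none lower. The shares of all genes called higher were 3.92% and 5.05%. Gstm1, a cytosolic transferase, rose from 40.6 ± 4.09 to 69.6 ± 9.9 TPM (SD, n = 4 and 3) in WT and from 38.2 ± 4.26 to 54.4 ± 4.68 TPM (SD, n = 5 and 5) in P1.hMR rats. Mgst2, a microsomal transferase, rose by 0.54 and 0.58 on the log2 scale. Gsta4, which conjugates the lipid peroxidation product 4-hydroxynonenal, rose by 0.59 in WT rats and had a difference of 0.47 in P1.hMR rats (limma adjusted p = 0.0013), under the fold threshold. Reads of Gstm1 may be shared with near-identical transferases, and how they were divided is not known.

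In the thioredoxin list of 10 genes, 1 was called higher and 1 lower in each genotype, and they were the same pair. Over all genes, 3.92% were called higher and 3.98% lower in WT, and 5.05% and 5.71% in P1.hMR animals. Txn1, thioredoxin, rose from 452 ± 18 to 654 ± 9.28 TPM (SD, n = 4 and 3) in WT and from 474 ± 36.3 to 786 ± 119 TPM (SD, n = 5 and 5) in P1.hMR animals. Txnip, which binds and inhibits thioredoxin, fell from 217 ± 54.6 to 125 ± 4.99 TPM (SD, n = 4 and 3) and from 209 ± 29.7 to 129 ± 12.2 TPM (SD, n = 5 and 5). All UVB rats were below all control rats in Txnip, the closest values being 151.34 TPM in a control and 146.76 TPM in a UVB rat. Sod3, the extracellular superoxide dismutase, rose by 0.51 in WT (limma adjusted p = 0.00484), and its difference in P1.hMR animals was 0.34 (limma adjusted p = 0.00886).

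The quinone, aldehyde and xenobiotic list moved in both directions. Cbr3, a carbonyl reductase, rose from 98 ± 15.4 to 159 ± 31 TPM (SD, n = 4 and 3) in WT and from 87.3 ± 11.7 to 151 ± 27.6 TPM (SD, n = 5 and 5) in P1.hMR rats. Aldh3a1, an aldehyde dehydrogenase abundant in cornea, fell from 394 ± 39.8 to 218 ± 28.9 TPM (SD, n = 4 and 3) and from 407 ± 52.6 to 242 ± 31.6 TPM (SD, n = 5 and 5). Its values did not overlap in either genotype. Aox1, aldehyde oxidase, fell in P1.hMR rats by 0.53 on the log2 scale (limma adjusted p = 0.0037) and had a difference of -0.34 in WT rats (limma adjusted p = 0.124). None of 6 heme and iron genes and none of 5 NADPH-supplying genes was called in either genotype. Over all genes 7.91% were called in WT and 10.8% in P1.hMR rats, so lists this short would often hold none.

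**Figure D3:**
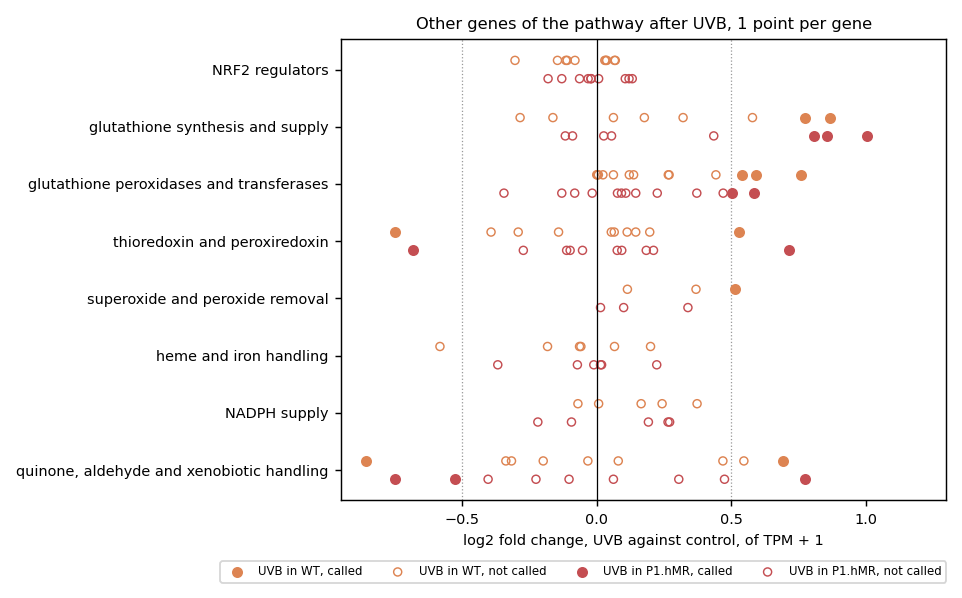
log2 fold change of TPM + 1 after UVB for the 64 further pathway genes, 1 point per gene and genotype, in 8 lists. Filled points are genes called changed, 10 in WT and 10 in P1.hMR animals, and the dotted lines mark the fold threshold of 0.5.

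Between genotypes no member was called. Under UVB 0.0229% of all genes were called and without UVB 0.00763%, with 1348 and 528 genes at an unadjusted limma p under 0.05. The called genes were 3 under UVB, the transgene NR3C2 among them, and without UVB NR3C2 alone. None of the 64 further pathway genes was called in either comparison. The widest 95% intervals were those of Hmox1, from -0.18 to 0.61 under UVB and from -0.39 to 0.34 without UVB, and Gpx2 ran from -0.19 to 0.57 under UVB and from -0.20 to 0.50 without it. Nqo1 ran from -0.51 to 0.11 under UVB. For Sod2, Prdx1, Txnrd1 and Gclm both intervals lay between -0.198 and 0.254 on the log2 scale.

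Nfe2l2 was the one member whose values did not overlap between the genotypes under UVB. The 5 UVB P1.hMR rats held 71.12 to 76.22 TPM and the 3 UVB WT rats 62.24 to 70.71 TPM, a gap of less than 1 TPM. Among all genes tested 5.87% did not overlap in this comparison. The log2 difference was 0.14 (SE 0.06, unadjusted limma p = 0.0387, adjusted p = 0.451), and the exact permutation p was 0.0357, the smallest these group sizes allow. Without the UVB WT rat at 62.24 TPM (replicate 1) the difference was 0.09 (limma adjusted p = 0.779). Without UVB the difference was -0.04 (95% interval -0.17 to 0.08), and the groups overlapped.

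The effect of UVB was not shown to differ between the genotypes for any member. The interaction was 0.19 for Nfe2l2 (SE 0.09, 95% interval 0.004 to 0.369, limma adjusted p = 0.711). Over all 13105 genes 907 had an unadjusted p under 0.05 for the interaction and 0% were called. For Gpx2 it was 0.05 (95% interval -0.47 to 0.56) and for Nqo1 -0.15 (95% interval -0.57 to 0.27).

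**Figure D4:**
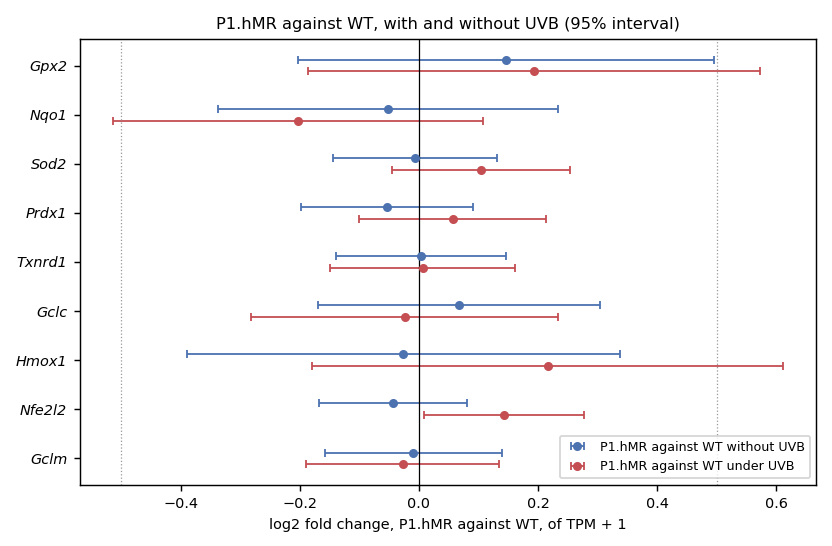
log2 fold change of TPM + 1 between P1.hMR and WT rats for the 9 genes, without and under UVB, as points with 95% intervals from limma. Every interval spans 0 except that of Nfe2l2 under UVB, at 0.14, whose adjusted p is 0.451.

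Correlations among the members from rat to rat were mostly low. With each value centred on its group, the 36 pairs of members had a median Pearson correlation of 0.17 over 17 rats, from -0.517 (Gclm and Sod2) to 0.59 (Gclm and Prdx1), and 24 pairs were positive. Among the 13105 genes, the 3 most like Nfe2l2 by this measure were Il17rd (r = 0.86), Mc5r (0.831) and Fundc1 (0.822). Those most like Nqo1 were Asf1a (0.84), Wdr20 (0.811) and Zadh2 (0.749), and those most like Hmox1 were Acp6 (0.85), AABR07028027.1 (0.836) and Fam83g (0.832). No member stood among them. Nqo1 had a correlation of -0.82 with the mean of the 12 macrophage markers, so that rats with more macrophage RNA than their group had less Nqo1. All these values are from the same 17 libraries, were the highest or lowest of many computed, and are given as descriptions.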

How the data were processed

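The deposited table gives TPM per gene, made by the authors from reads aligned to rn7, and writes them with decimal commas. The methods name STAR and RSEM, whereas the submitters' processing notes name Trimmomatic, DRAGEN and Picard; which made the table is not given in the sources used here. Columns sum to 804378 to 840817 TPM, so some genes are left out, and read depth per rat is unknown from TPM. Values were taken as log2(TPM + 1), which understates changes of low genes, and fitted with limma 3.58.1 in R 4.3.3 (4 group means, trended eBayes, 17 rats, 13105 genes). A gene was called at an adjusted p under 0.05 and a log2 fold change of at least 0.5, the study's thresholds. Single genes were tested by a two-sided exact permutation test of group means (Python 3.11.15). The fitting was tested on simulated data. The members and lists were chosen with earlier results of these data known. Named are all members, the 12 pathway genes called after UVB in WT or in P1.hMR rats (none was called between genotypes; a call in the averaged comparison alone, as for Akr1b8, did not count), and the 3 genes most like Nfe2l2, Nqo1 and Hmox1; marker genes and Keap1, Maff, Cul3, Rbx1 and Nfe2l1 were named after their values were seen. The study describes WT rats as littermates of P1.hMR rats, but the labels do not say which rats shared a litter or batch, so none was fitted and p-values measure the spread between these rats. RefSeq sequences are of GRCr8, not rn7.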

Additional observations from a re-analysis of the deposited data

Results flagged for a closer look

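In 27 combinations of a gene and a group of 4 or 5 rats, 4 held 1 rat far from the others of its group. Chance gives about 1 in 20 for independent and normally spread values. The 27 share the same rats, so the 4 cannot be set against that rate. In control P1.hMR rats, Nfe2l2 of replicate 1 was at 59.34 TPM, against 68.92 to 71.54 TPM in the other rats. In UVB P1.hMR rats, Nqo1 of replicate 4 was at 43.78 TPM, against 66.72 to 72.04 TPM. In control WT rats, Hmox1 of replicate 1 was at 86.9 TPM, against 50.91 to 56.45 TPM. In UVB P1.hMR rats, Hmox1 of replicate 1 was at 93.34 TPM, against 59.19 to 65.42 TPM. The source of these values was not tested.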

How the results depend on the processing

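Of 1778 values recomputed under the alternatives, 1682 kept their direction and side of the threshold or were counts that changed little. One such count was that of members called after UVB in WT, which went from 2 to 3 with no fold threshold. Many values could not change, since leaving out a rat of neither compared group leaves the difference itself as it was. The total therefore does not measure how stable the results are. Gpx2 was called in both genotypes under every alternative except a fold threshold of 1, which left it uncalled in WT.

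The count of members called after UVB in WT, 2, was 1 with a hair keratin covariate and 0 with a fold threshold of 1. In P1.hMR rats it was 1, and became 2 with median-of-ratios scaling or a skeletal muscle covariate, 5 with no fold threshold, and 1 to 2 leaving out 1 rat. Averaged over the genotypes it was 2, and became 1 with the hair keratin covariate or a fold threshold of 1 and 6 with none. The further pathway genes called went from 10 to 19 in WT and 28 in P1.hMR animals with no fold threshold, and to 0 and 1 with a threshold of 1. For these thresholds the cause is their construction; for the others the cause was not tested. No scaling moved the median of all genes by over 0.1.

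Replicate numbers are shared between groups. Of 15 same-numbered pairs, 3 had a correlation of deviations over 0.1 (range -0.187 to 0.235). All 3 were between control WT and control P1.hMR rats (replicates 1, 3 and 4, at 0.192, 0.118 and 0.235). Rats with different numbers were not compared, so whether the numbers pair rats was not tested. With the replicate block the members called were 2 (WT) and 1 (P1.hMR), the same as without it, and the further pathway genes 11 and 10.

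Direction reversed in 18 results, whose reported values were at most 0.091 in size on the log2 scale with adjusted p of 0.717 or more. For P1.hMR against WT under UVB, Gclc became 0.00022 (quantile normalization), 0.007 (replicate block) and 0.007 (muscle covariate), and Gclm 0.007 (block). Without UVB, quantile normalization gave 0.002 for Gclm and 0.009 for Sod2, and the block gave 0.00051 for Hmox1, 0.014 for Gclm and -0.011 for Txnrd1. The muscle covariate gave -0.02 for Gclc after UVB in P1.hMR rats, -0.085 for averaged Hmox1 and -3.2e-05 for the Txnrd1 interaction. The hair keratin covariate gave 0.224 for Hmox1 in WT and interactions of 7.2e-05 for Gclm and -0.017 for Gpx2, and median-of-ratios scaling 0.005 for the Gclm interaction. The cause was not tested.

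Leaving out 1 rat reversed 48 of these values. Hmox1 ran from -0.278 to 0.114 after UVB in WT and from -0.048 to 0.148 averaged. Under UVB, P1.hMR against WT ran from -0.226 to 0.101 for Gclc, -0.11 to 0.072 for Gclm and -0.069 to 0.108 for Txnrd1. Without UVB it ran from -0.083 to 0.003 for Nfe2l2, -0.132 to 0.02 for Nqo1, -0.109 to 0.144 for Hmox1, -0.01 to 0.12 for Gclc, -0.046 to 0.019 for Gclm, -0.032 to 0.045 for Txnrd1, -0.1 to 0.003 for Prdx1 and -0.029 to 0.03 for Sod2. Interactions ran from -0.293 to 0.034 for Gclc, -0.101 to 0.082 for Gclm, -0.072 to 0.104 for Txnrd1 and -0.11 to 0.175 for Gpx2.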
